A study of Mus musculus with 8 samples.

Results

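Of the genes through which cells receive or answer Hedgehog signals, 9 were followed in sorted mouse colon fibroblasts as Hedgehog response genes. They were chosen by name: the transcription factors Gli1, Gli2 and Gli3, the ligand receptor Ptch1, the ligand decoy Hhip, the signal transducer Smo, and the coreceptors Boc, Cdon and Gas1. All 9 were represented among the 30627 genes that the platform's probe annotation named singly, each by 1 transcript cluster, which is a group of probes read as one transcript. Values are log2 expression as deposited, and 8 of the 9 members passed the filter on dim clusters and were tested.

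The cells came from the colon of wild-type C57BL/6J mice, with 4 mice named in the series' design. Flow cytometry had first kept cells without Epcam, CD45 and CD31 and with GP38, which is podoplanin, and had then split them by surface CD90 into a CD90- and a CD90+ population. No genotype or treatment separates the populations, and no age is given. Which samples came from the same mouse is not stated, so every p-value rests on the spread among these 8 samples alone. Each population had 4 arrays, called here by their title numbers: 13, 15, 17 and 19 for CD90- and 14, 16, 18 and 20 for CD90+.

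Hedgehog proteins of the gut are made by the epithelium and act on the mesenchyme below it. Without ligand, Ptch1 holds Smo inactive; ligand binding, helped by Boc, Cdon or Gas1, releases Smo, which keeps Gli2 and Gli3 from being processed into repressors. Gli1, Ptch1 and Hhip are themselves switched on by Gli proteins, so they serve both as parts of the pathway and as its usual readouts. Ptch1 and Hhip bind the ligand and so limit the signal.

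The sort markers and the arrays set the frame. Thy1, which codes for CD90, was at 5.46 to 5.57 in the CD90- samples and at 7.03 to 8.11 in the CD90+ samples. All 8 measured genes of a list of 9 fibroblast markers (Pdgfra was not analysed here) lay, on every array, above that array's median of negative control probes. Those medians ran from 6.79 to 6.84 in CD90- and from 6.58 to 6.67 in CD90+ samples, and a value below them is a caution about its size. Although cells were sorted without surface Epcam, Epcam lay between 7.21 and 9.40, above these medians on all 8 arrays. Ptprc, which codes for CD45, lay below them on all 8, and Pecam1, which codes for CD31, on 5. The source of the Epcam signal was not tested. Samples 13 and 14 stood apart on the second principal component (13.2% of the variance), with Xist, transcribed from the inactive X chromosome of females, at 16.16 and 16.27 against 5.89 to 9.32 in the other 6. Uty, a gene of the Y chromosome, was at 5.49 and 5.56 in these samples against 9.65 to 10.06. The labels give no sex, and members for which samples 13 and 14 read highest are given with and without them. The largest deposited value was 19.9, above the 16 that a 16-bit scan can give, so differences are differences on this scale and no ratio of RNA amounts.

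Ptch1 and Hhip, both feedback inhibitors that capture the ligand, went in opposite directions. The 250 bases before their start in RefSeq (GRCm38.p6) are shown because these are the members with the largest differences of either sign. Both lie on the minus strand, that of Ptch1 at chr13:63565736-63565985 and that of Hhip at chr8:80058009-80058258, and capitals mark CCACCC, the core of the GLI binding consensus, on either strand.
Ptch1: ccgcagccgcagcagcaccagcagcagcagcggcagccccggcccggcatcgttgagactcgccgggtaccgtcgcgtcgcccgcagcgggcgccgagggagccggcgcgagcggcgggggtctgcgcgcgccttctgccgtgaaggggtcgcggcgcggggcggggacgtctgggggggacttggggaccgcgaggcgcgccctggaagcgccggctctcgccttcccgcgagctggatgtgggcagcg
Hhip: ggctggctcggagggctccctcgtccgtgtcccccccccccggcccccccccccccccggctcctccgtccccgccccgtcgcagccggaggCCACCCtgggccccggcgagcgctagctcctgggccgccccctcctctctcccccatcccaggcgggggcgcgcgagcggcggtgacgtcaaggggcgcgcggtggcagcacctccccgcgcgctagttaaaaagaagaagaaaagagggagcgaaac
The consensus GACCACCCA was searched on both strands of this window in 32841 promoters. It was present in 0.225% of them, and in 5.79% with at most 1 substitution. None of the 7 members with a promoter in the table (all but Gli1 and Boc) held it either way. The core, a search added afterwards whose letters lie within the consensus, was present in 28.1% of all promoters and in 4 of the 7 members, Gli2, Gli3, Hhip and Smo. The core is mostly C, and these 4 windows held 67.2% to 76.0% G or C bases. The median over all promoters was 52.4%, and the window of Ptch1, without the core, held 78.4%. The 2 shares are therefore not read against each other. A match describes letters only, and its absence says nothing of sites elsewhere.

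**Figure D1:**
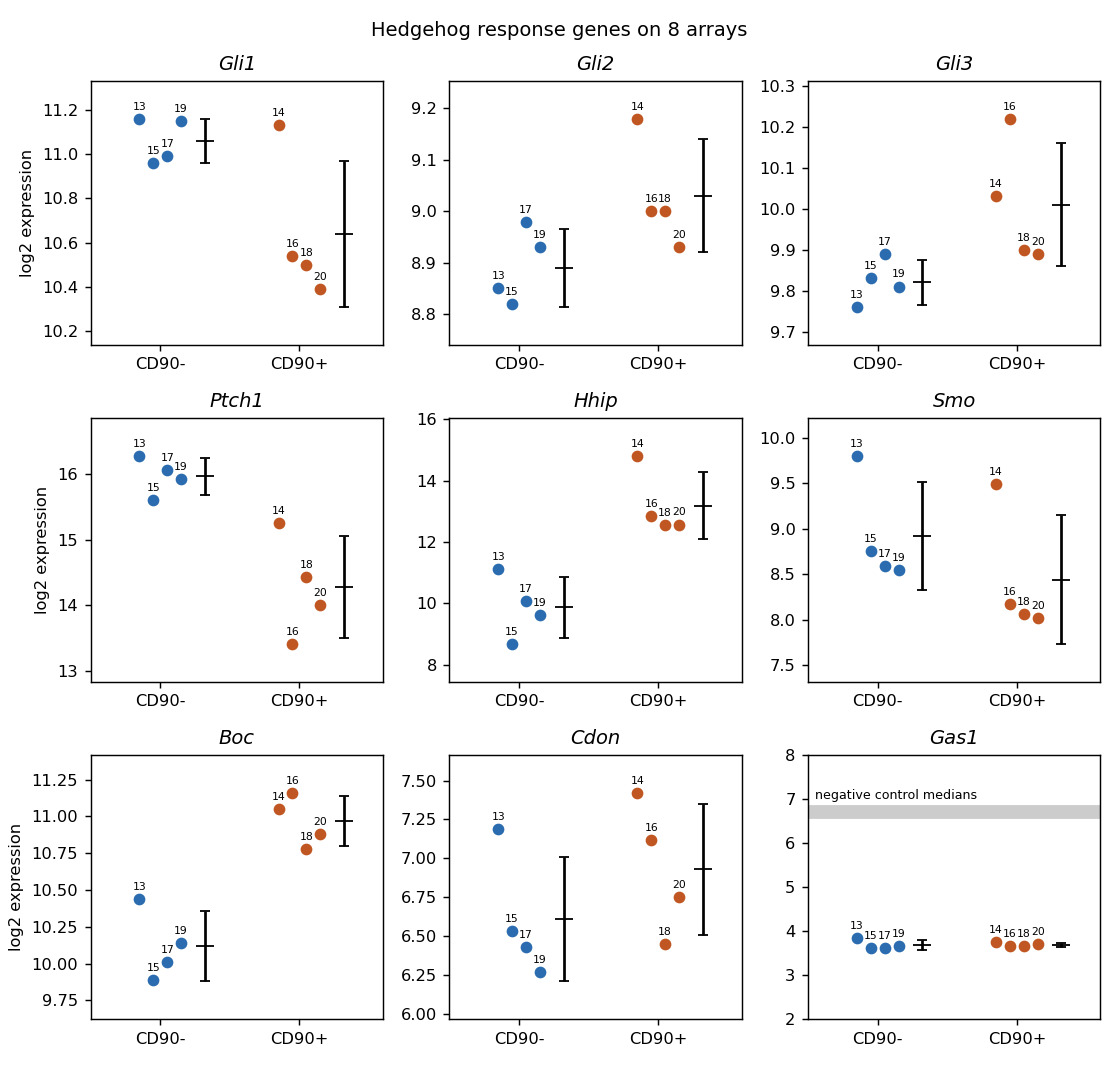
Log2 expression (y axis, a separate range for each gene) of the 9 members in the 4 CD90- (blue) and 4 CD90+ (orange) samples, numbered as in their titles; black bars give the mean and SD. Hhip and Boc are higher and Ptch1 is lower in every CD90+ sample, and Gas1 lies below the band of negative control medians on all 8 arrays.

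Hhip codes for a membrane-bound and secreted decoy that binds Hedgehog ligands. Its log2 expression was 11.11, 8.67, 10.07 and 9.63 in CD90- samples 13, 15, 17 and 19, and 14.81, 12.84, 12.56 and 12.57 in CD90+ samples 14, 16, 18 and 20. The lowest CD90+ sample lay above the highest CD90- sample. The means were 9.87 ± 1.0 and 13.19 ± 1.1 (SD, n = 4 each), a difference of 3.33 (SE 0.62, 95% interval 1.91 to 4.74; limma adjusted p = 0.00393). Sample 14 stood above the other CD90+ samples and sample 13 was the highest CD90- sample; without both, the difference was 3.20 (limma adjusted p = 0.000385).

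Ptch1, the receptor that restrains Smo, was at 16.28, 15.61, 16.07 and 15.93 in samples 13, 15, 17 and 19 and at 15.26, 13.41, 14.43 and 14.01 in samples 14, 16, 18 and 20. Every CD90+ sample lay below every CD90- sample. The means were 15.97 ± 0.28 and 14.28 ± 0.78, a difference of -1.70 (SE 0.35, 95% interval -2.49 to -0.90; limma adjusted p = 0.00651). In CD90- samples 13 and 17 the value passed 16, where the deposited scale exceeds that of the scan. The log2 value of Ptch1 minus that of Hhip, taken within each array, lay between 5.17 and 6.94 in the CD90- and between 0.46 and 1.86 in the CD90+ samples. Probes differ in brightness, so only the change of this value is read; it shifted by -5.02. Since the ranges of both genes lay apart in opposite directions, a permutation test of this shift could only give its smallest p and adds nothing. Without samples 13 and 14, Ptch1 differed by -1.92 (limma adjusted p = 0.00135).

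Gli1, the activator that is itself a pathway target, did not pass the test. It was at 11.16, 10.96, 10.99 and 11.15 in the CD90- samples and at 11.13, 10.54, 10.50 and 10.39 in the CD90+ samples. In 3 CD90+ samples it lay below all CD90- values, and sample 14 fell among them. The difference was -0.42 (SE 0.15, 95% interval -0.77 to -0.07; limma adjusted p = 0.0727). Without sample 14 it was called lower (-0.59, limma adjusted p = 0.00121), likewise without samples 13 and 14 (-0.55, limma adjusted p = 0.00214). Leaving out sample 14 removes the CD90+ value that lay among the CD90- values, so these calls are no separate support. It was also called lower when arrays were weighted (-0.57, limma adjusted p = 0.00378), with weights estimated from these same values. With neighbouring title numbers taken as pairs, which the labels do not state, the limma adjusted p was 0.0443. These 4 of 17 alternatives called Gli1 lower, and the others did not (limma adjusted p up to 0.173). Gli1 minus Ptch1 within arrays was higher by 1.27 in the CD90+ samples. Its two-sided exact permutation p was 0.0286, the smallest that the 70 assignments of 4 against 4 can give. Adjusted over the 5 pairs of members compared, that p was 0.0477. The adjustment leans on the equally small p of Ptch1 with Hhip and of Boc with Gas1, tests that are not read. The adjusted value is therefore not counted as passing. Without samples 13 and 14 the shift of Gli1 minus Ptch1 was 1.37. Its exact permutation p was then 0.1, the smallest that 3 against 3 can give.

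Gli2 and Gli3, which carry the signal as activators or, when processed, as repressors, stayed within narrow ranges. Gli2 lay between 8.82 and 8.98 in the CD90- and between 8.93 and 9.18 in the CD90+ samples, overlapping ranges. Its difference was 0.13 (95% interval -0.04 to 0.30; limma adjusted p = 0.222). Gli3 lay between 9.76 and 9.89 in the CD90- samples and between 9.89 and 10.22 in the CD90+ samples, with no overlap before rounding. Its difference was 0.19 (95% interval -0.0047 to 0.38; limma adjusted p = 0.132). Neither passed the test, which does not show that the populations were alike. Gli2 minus Gli3 shifted by -0.06 between the populations (exact permutation p = 0.714).

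Smo, the membrane protein that passes the signal into the cell, was at 9.80, 8.75, 8.59 and 8.55 in samples 13, 15, 17 and 19 and at 9.49, 8.17, 8.06 and 8.02 in samples 14, 16, 18 and 20. Samples 13 and 14 stood above the rest of their own populations, and the ranges overlapped through sample 14. The difference was -0.49 (SE 0.39, 95% interval -1.37 to 0.40; limma adjusted p = 0.389), which did not pass. Without samples 13 and 14 it was -0.545 and was called lower (limma adjusted p = 0.00253). Between neighbouring title numbers the CD90+ sample was lower in each case (differences of -0.58 to -0.31). With that assumed pairing as a block Smo was also called lower (limma adjusted p = 0.00381). These 2 of 17 alternatives called Smo, and the others did not. Without sample 13 alone the difference was -0.19 (limma adjusted p = 0.713).

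The coreceptors, which bind the ligand together with Ptch1, did not share one pattern. Boc was at 10.44, 9.89, 10.01 and 10.14 in the CD90- samples and at 11.05, 11.16, 10.78 and 10.88 in the CD90+ samples. Every CD90+ value lay above every CD90- value. The means of 10.12 ± 0.24 and 10.97 ± 0.17 differed by 0.85 (SE 0.13, 95% interval 0.55 to 1.14; limma adjusted p = 0.00145). Cdon, the paralogue of Boc, was at 7.19, 6.53, 6.43 and 6.27 and at 7.42, 7.12, 6.45 and 6.75, ranges that overlapped and included 4 values below the negative control medians. Its difference of 0.33 did not pass (95% interval -0.24 to 0.89; limma adjusted p = 0.363), nor did that of 0.36 without samples 13 and 14 (limma adjusted p = 0.147). Boc minus Cdon shifted by 0.52, which was not shown to differ from 0 (exact permutation p = 0.0571, 0.0714 adjusted over the 5 pairs). Gas1, a coreceptor anchored to the membrane by a lipid, lay between 3.61 and 3.85 on all 8 arrays, below the negative controls and the filter, and was not tested. The pair of Boc and Gas1 is not read, since Gas1 has no level above background.

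**Figure D2:**
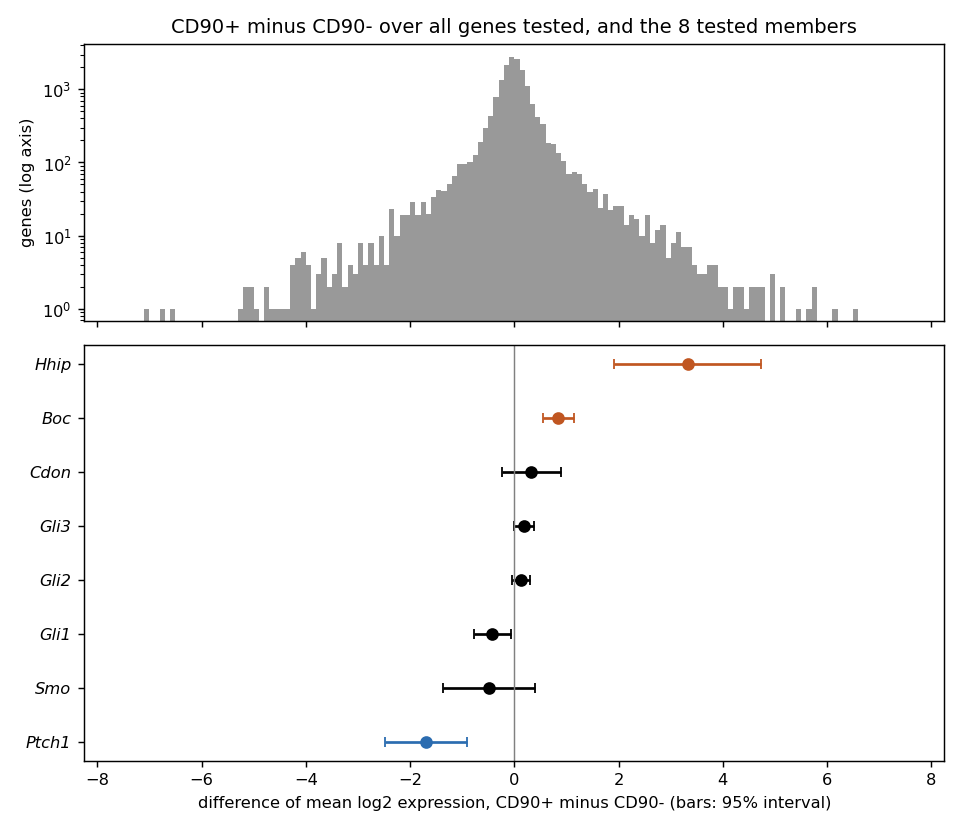
Above, the number of genes (log axis) by difference of mean log2 expression, CD90+ minus CD90-, over the 17151 genes tested; below, the 8 tested members with their 95% intervals on the same axis. Orange marks members called higher, blue lower and black not called: Hhip at 3.33, Boc at 0.85 and Ptch1 at -1.70 were called.

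Of the 8 tested members, 2 were called higher (Hhip and Boc) and 1 lower (Ptch1) at a limma adjusted p under 0.05. Over all 17151 genes tested, 13.9% were called higher and 15.6% lower, 29.6% together, so the number of members called is near what the whole array shows. In 4 members the 2 populations' ranges were apart (Gli3, Ptch1, Hhip and Boc), against 32.2% of all genes. In size, the difference of Hhip was larger than that of 99.4% of the genes tested, that of Ptch1 than 96.7% and that of Boc than 90.7%. The median difference of the tested members was 0.16, and that of all genes was -0.0143. A share near that of all genes is no result about the members as a set.

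Within each population, several members were high or low on the same arrays. Samples 13 and 14 were the highest of their populations for Gli1, Ptch1, Hhip, Smo and Cdon. Relative to its population's mean, sample 13 was higher by 1.24 for Hhip, 0.88 for Smo and 0.31 for Ptch1, and sample 14 by 1.61, 1.05 and 0.98. Sample 15 was the lowest CD90- sample for both Ptch1 (-0.36) and Hhip (-1.20), and sample 16 the lowest CD90+ sample for Ptch1 (-0.87). Ptch1 and Hhip thus leaned the same way on these arrays within a population, while their means went opposite ways between populations. Taken between neighbouring title numbers (14 minus 13, 16 minus 15, 18 minus 17, 20 minus 19), Hhip differed by 3.70, 4.17, 2.50 and 2.94. Ptch1 differed by -1.02, -2.20, -1.64 and -1.92 and Boc by 0.61, 1.27, 0.77 and 0.74. For these 3 genes each of the 4 differences had the sign of the whole comparison, which follows from ranges that do not overlap. Gli1 differed by -0.02, -0.42, -0.49 and -0.76, so that samples 13 and 14, which both read high, hardly differed. Samples 13 and 14 also differed from the rest in Xist and Uty, and the part of sex in these values was not tested.

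**Figure D3:**
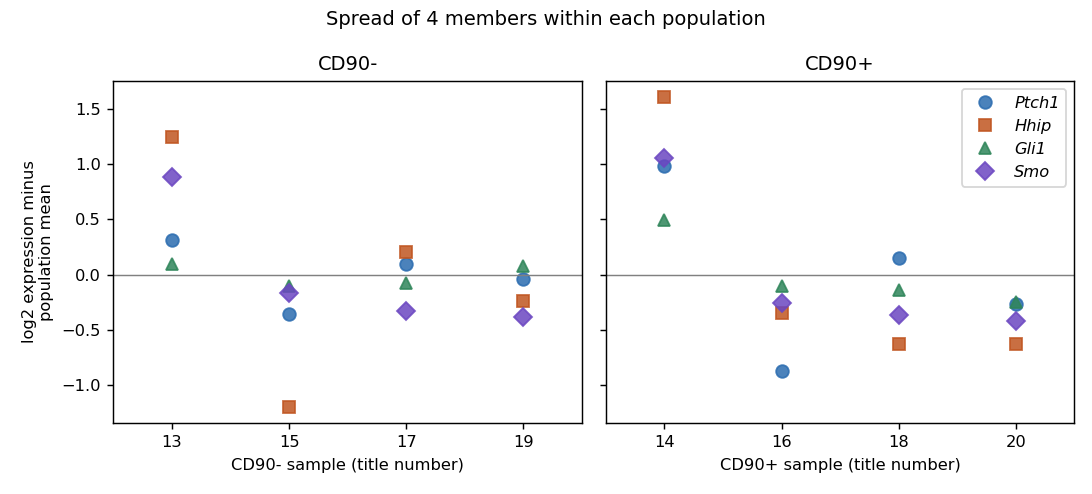
Log2 expression of Ptch1, Hhip, Gli1 and Smo minus the mean of the gene's own population (y axis) in each CD90- (left) and CD90+ (right) sample (x axis, title numbers). Samples 13 and 14 lie above 0 for all 4 genes, up to 1.24 and 1.61 for Hhip.

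The genes most like each member over the 8 arrays were described by Pearson's r, which mixes the difference between populations with the spread within them and is given without a p. Ptch1 was most like Clk1, Aox1 and Zranb2 (r = 0.992, 0.992 and 0.986). Hhip was most like Gm12796, Prxl2c and Pld1 (each r = 0.993), and Boc was most like Jmjd1c, Pi15 and Cd36 (r = 0.997, 0.995 and 0.994). Pi15 differed by 3.36 and Cd36 by 1.89 in the direction of Boc. Gli1 was most like Kcnmb1, Gm15528 and Clip4 (r = 0.975, 0.969 and 0.965), and Smo most like Gnb1 (r = 0.998). Gli2 was most like Fbxl21 (r = 0.960), Gli3 most like Gpsm2 (r = 0.973) and Cdon most like Ifi204 (r = 0.977). Gas1, which was not tested, has no such gene here.

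Other genes of the pathway, taken from lists of 47 genes of which 41 were measured and 35 tested, moved both ways. In all, 6 were called higher and 11 lower, with a median difference of -0.081. Over all genes tested 13.9% were called higher and 15.6% lower, the shares beside which the counts by list also stand. Among the ligands, Shh lay between 3.44 and 3.82, Dhh between 4.62 and 5.19 and Ihh between 5.35 and 5.70, all below the negative controls on every array. Of the 5 tested genes of ligands and release, 1 was called higher and 2 lower. Scube1, a secreted protein of the family that helps release ligand from cells, was at 11.82, 11.76, 11.78 and 11.63 in the CD90- and at 13.77, 13.33, 13.48 and 13.37 in the CD90+ samples. It rose by 1.74 (SE 0.1; limma adjusted p = 5.23e-06). Disp1, which exports the lipid-bearing ligand, fell from 8.80 ± 0.14 to 8.10 ± 0.033 (limma adjusted p = 0.000238), and Hhat, the acyltransferase that adds the ligand's palmitate, fell from 7.99 ± 0.24 to 7.34 ± 0.10 (limma adjusted p = 0.00382).

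Of 18 tested transducers inside the cell and its cilium, 3 were called higher and 3 lower, with a median difference of -0.0346. Evc, a protein at the base of the cilium that binds Smo, rose by 0.47, and Ift172, a carrier of intraflagellar transport, by 0.49 (limma adjusted p = 0.00229 and 0.00209). Gsk3b, a kinase that marks Gli proteins for processing, fell by 0.30 (limma adjusted p = 0.0167). Sufu, the main cytoplasmic inhibitor of Gli proteins, was at 7.93 ± 0.071 and 7.81 ± 0.082 and did not pass (limma adjusted p = 0.252). The kinesin gene Kif7 and Stk36 were below the negative controls on all 8 arrays, and Tulp3 was on 3. Mgrn1, a ubiquitin ligase, was called higher by 0.49, and Tulp3 and Ift88, both of ciliary transport, were called lower with differences of -0.30 and -0.24. Mgrn1 lost its call without any 1 of samples 14, 16, 17, 19 and 20 (limma adjusted p up to 0.0657), Tulp3 without any 1 of samples 14, 15, 17, 18 and 19 (up to 0.108) and Ift88 without any 1 of samples 15 to 20 (up to 0.111). Ift88 also lost its call with the block of neighbouring title numbers (limma adjusted p = 0.0718), and both Ift88 and Tulp3 lost theirs with no filter on dim clusters (limma adjusted p = 0.0586 each). Mgrn1 lost its call with arrays centred on their medians (limma adjusted p = 0.0561).

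Of 4 tested glypicans, proteoglycans that bind Hedgehog ligands at the surface, limma called 0 higher (0 also at an unadjusted p under 0.05) and 1 lower. Gpc6 fell by 0.40 (limma adjusted p = 0.036) and lost its call without any 1 of samples 15, 16, 18, 19 and 20 (up to 0.0953). The call of Gpc6 was also lost with no filter on dim clusters (limma adjusted p = 0.0516) and with repeated quantile normalization (limma adjusted p = 0.0565). Gpc3, which competes with Ptch1 for ligand, was at 10.60, 7.70, 7.67 and 7.46 in CD90- and at 12.05, 9.92, 9.12 and 9.40 in CD90+ samples, with samples 13 and 14 again highest. Its difference of 1.77 did not pass (limma adjusted p = 0.15), and without samples 13 and 14 it was 1.87 and was called higher (limma adjusted p = 0.000434). It was also called higher with neighbouring title numbers as a block (limma adjusted p = 0.000605), without sample 13 (2.51, limma adjusted p = 0.0203) and with arrays weighted (limma adjusted p = 0.0259). These 4 of 17 alternatives called Gpc3, and the others did not (limma adjusted p up to 0.3). Without sample 14 alone the difference was 1.125 (limma adjusted p = 0.296).

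Genes known as Hedgehog targets in gut mesenchyme or other tissues differed in both directions. Of 8 tested, 5 were called lower and 2 higher, with a median difference of -0.84. Over all genes tested the shares were 15.6% lower and 13.9% higher. This list was chosen with earlier results of these data known, so its counts are a description only. The forkhead factors of gut mesenchyme were lower: Foxf2 was at 13.48, 13.56, 13.53 and 13.32 in the CD90- and at 11.85, 11.28, 11.44 and 11.16 in the CD90+ samples, a difference of -2.04. Foxl1 fell by 2.20, to values below the negative controls in all 4 CD90+ samples, and Foxf1 fell by 1.05. Nkx2-3, a homeobox factor of gut mesoderm, fell by 1.08, and the growth factor gene Bmp4 fell by 0.63. Of the 2 that rose, Osr1, a zinc finger factor of mesoderm, went from 9.47, 8.70, 9.58 and 9.46 to 12.86, 11.53, 12.73 and 12.49, and Bcl2, an inhibitor of apoptosis, rose by 0.51. Limma adjusted p for these 7 ran from 1.41e-05 for Foxl1 and Foxf2 to 0.00458 for Bcl2. Any called gene goes in the direction of either Ptch1 or Hhip, so the directions of these 7 are not read against the members.

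**Figure D4:**
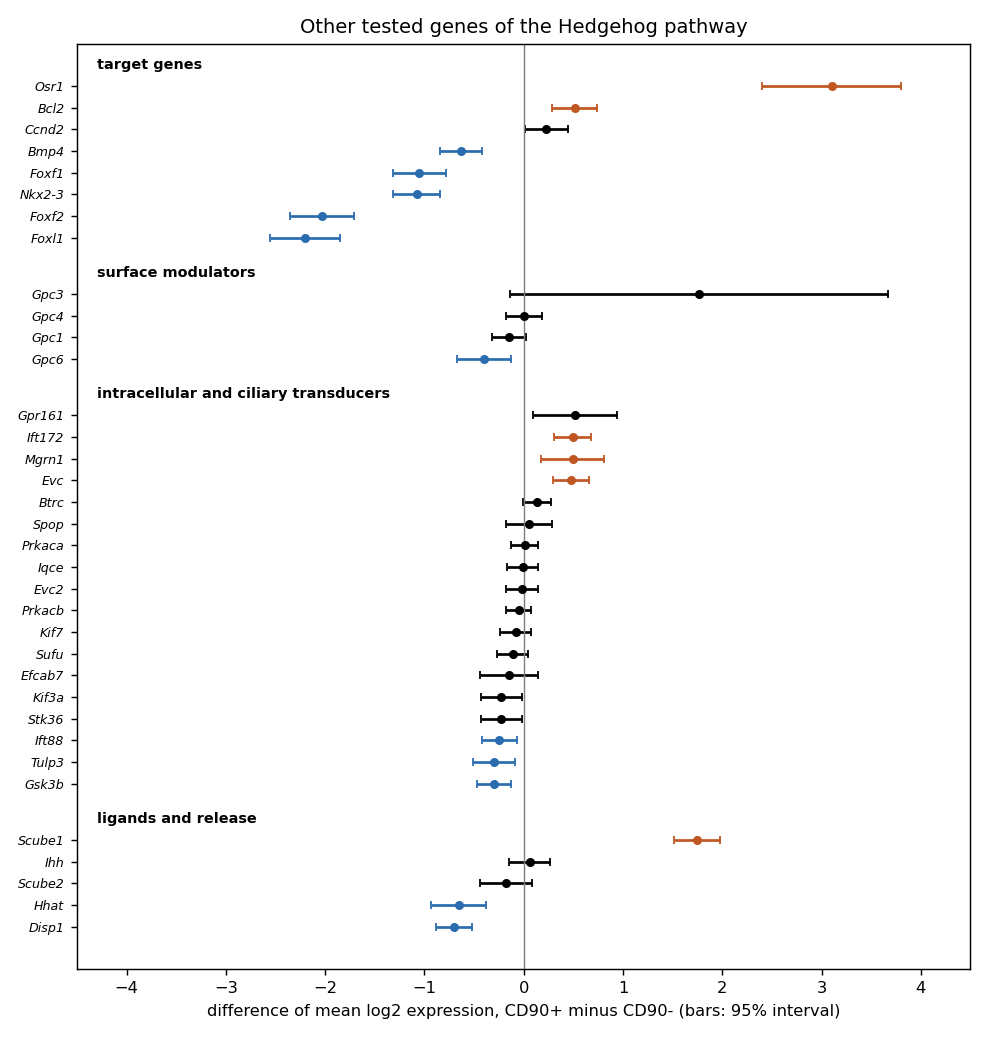
Difference of mean log2 expression, CD90+ minus CD90- (x axis, points with 95% intervals), for the 35 tested pathway genes outside the members, by list. Orange marks genes called higher, blue lower and black not called; Osr1 (3.10) and Scube1 (1.74) lie farthest to the right, and Foxl1 (-2.20) and Foxf2 (-2.04) farthest to the left.

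Markers of fibroblast subsets and of other cells differed between the populations along with the members. The marker lists were chosen with earlier results of these data known, so their counts are no independent support for a subset's identity. All 8 markers of subepithelial PDGFRA-high fibroblasts, Foxl1 among them, were called lower, and their summed level (log2 of the summed linear values) was 18.43 to 18.53 in CD90- and 15.56 in all CD90+ samples. Such sums take the deposited values as plain log2 and follow the brightest genes. Here most of the sum was Bmp5, at 17.9 to 17.97 in CD90- and 15.31 to 15.42 in CD90+ samples. All 7 markers of CD34-CD81 adventitial fibroblasts were called higher, with summed levels of 13.01 to 14.05 and 16.17 to 16.53. Of 9 enteric glia markers 7 were measured, with summed levels of 8.35 to 8.78 in CD90- and 10.69 to 12.94 in CD90+ samples. The sum in CD90+ samples was mostly Cdh19 and Kcna1 (means of 10.44 and 10.76). In every CD90- sample Sox10, S100b, Gfap, Cdh19, Kcna1 and Fabp7 lay below the negative controls. Erbb3 did so in CD90- samples 15, 17 and 19. Limma called all 7 higher. Gfap passed the filter through the CD90+ samples alone. Cdh19 and Kcna1 reached it in CD90- samples 13 and 15 only, so they too needed the CD90+ samples to pass. The calls of Gfap, Cdh19 and Kcna1 are therefore not read, and those of Sox10, S100b, Erbb3 and Fabp7 remain. Of the 6 tested epithelial markers limma called 0 in either direction, and 0 had an unadjusted p under 0.05; their summed levels of 10.42 to 13.21 and 10.95 to 13.38 overlapped. Of 9 smooth muscle markers 4 were higher and 4 lower, and of 6 pericyte markers 3 and 3. Of 6 measured neuron markers, Stmn2 rose from 6.06 to 6.68 in CD90- to 10.54 to 11.65 in CD90+ samples. The other 5 lay below the negative controls on all 8 arrays; Uchl1 was called higher, Ret passed the filter through the CD90+ samples alone, and Elavl4, Tubb3 and Snap25 were not tested. Of 7 leukocyte markers, Cd68 (8.57 to 8.85 and 9.14 to 10.32), Cx3cr1, Cd3e and Cd79a were called higher. Of these, Cd3e and Cd79a lay below the negative controls on all 8 arrays, and Cx3cr1 on all but sample 14. Ptprc, Adgre1 and Itgam lay below the filter on all 8 arrays. In sorted bulk samples a change in the share of cells of a type and in the RNA per cell cannot be told apart, and the part of these cells in the members' differences was not tested.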

How the data were processed

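RNA of sorted colon fibroblasts was amplified and hybridised to Affymetrix MTA-1_0 arrays, 1 per sample, per the labels' protocols. The deposited values are log2 expression, made by the authors with RMA in Affymetrix Expression Console 1.1, per the submitters' processing notes. Neither the labels nor the notes name a genome build. They were used without further normalization. Of 65956 transcript clusters, 31080 named 1 gene, 1670 several and 33206 none. The cluster with the highest mean stood for a gene, and clusters naming several genes were left out. A gene was tested where 4 or more of the 8 samples reached 5.36, the 50th percentile over all clusters (17151 genes). The test was limma 3.58.1 (R 4.3.3), two-sided, its p-values adjusted by Benjamini-Hochberg over these genes, with a threshold of 0.05. The fit was checked on simulated data. Member pairs were compared by exact permutation. The number of arrays limits the precision.

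All 9 members, the genes of fixed pathway lists and the 3 genes most like each member are those the text may name. The members and lists were chosen with earlier results of these data known. Alternatives were other filters, repeated quantile normalization, median centring, an intensity trend, array weights, averaged clusters, a block of neighbouring title numbers, and leaving samples out. Promoter windows came from RefSeq (GRCm38.p6); the search for the motif's core and for 1 substitution was chosen after seeing the data.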

Additional observations from a re-analysis of the deposited data

Results flagged for a closer look

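In 7 of 102 values of a gene in a population, 1 sample lay far from the other 3; chance alone would give such a gap in about 1 in 20 groups. The figure given is the gap to the nearest sample as a share of the population's range. For Hhip, CD90+ sample 14 (14.81, nearest 12.84) gave 0.875. For Smo, CD90- sample 13 (9.80, nearest 8.75) gave 0.837 and CD90+ sample 14 (9.49, nearest 8.17) gave 0.894. For Gpc3, CD90- sample 13 (10.60, nearest 7.70) gave 0.925. For Osr1, CD90- sample 15 (8.70, nearest 9.46) was low and gave 0.861. Dhh in CD90+ sample 14 (4.89, nearest 5.15) gave 0.872 and Mycn in CD90- sample 15 (5.20, nearest 5.28) gave 0.905, both low and both at levels under the filter.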

How the results depend on the processing

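Hhip and Boc were called higher and Ptch1 lower under each of 17 alternatives. Differences ran from 2.79 to 3.74 for Hhip, from 0.77 to 0.95 for Boc and from -2.02 to -1.41 for Ptch1. The count of members called lower, 1 in the comparison as reported, was 2 with array weights, 3 with a replicate block of neighbouring title numbers and 3 without samples 13 and 14, the added members being Gli1 and Smo; leaving out 1 sample gave 1 to 2, with 2 only without sample 14. The cause was not tested. The labels give no shared replicate numbers, so that block is an assumed pairing; it added Kif3a, Stk36 and Gpc3 to the calls among other pathway genes and removed Ift88. Deviations from the population means correlated by 0.29 to 0.45 between neighbouring numbers. Among the samples of the other population only, 7 of 8 samples correlated most with their neighbour in these deviations. All genes called higher came to 1541 under the stricter filter against 2392, with fewer genes tested. No result that was called changed direction. Values below the negative control medians limit Gas1, Cdon and the ligand genes.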
